A study of Bos taurus with 7 samples.

Results

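The cytosolic ribosomal proteins were measured in rumen epithelium of Holstein calves by 89 array probes for 82 genes, out of 15008 probes with 14952 gene names. The members were all probes whose gene name has the form RPL or RPS with a number, with or without a letter (paralogues ending in L or L1 included), plus RPSA, RPLP0, RPLP1 and RPLP2; the RPS6K kinases, which phosphorylate a ribosomal protein but are not part of the ribosome, were left out. Total RNA of each calf was labelled with Cy3 and hybridised to 1 single-colour Agilent array. The HAY group was 3 calves given forage (calves 9, 10 and 13), and the CON group was 4 calves not given forage (calves 8, 11, 12 and 14). The design text puts the division into groups at 3 weeks after weaning; age at sampling is not given in the sources used here. The series title names calf starter, a concentrate feed, beside forage.

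The cytosolic ribosome is built from ribosomal RNA and a large set of ribosomal proteins, which are divided between a small subunit, where messenger RNA is decoded, and a large subunit, where peptide bonds are made. The proteins are made in matched amounts, and most of their mRNAs begin with a terminal oligopyrimidine (TOP) tract, through which the TOR kinase pathway mainly regulates their translation rather than their abundance. The rumen epithelium is a keratinised, stratified epithelium that renews itself from a dividing basal layer and enlarges during weaning. Because ribosomal protein mRNAs are abundant in nearly every cell type, whole tissue RNA does not tell which cells they came from, and fewer cells of a type cannot be told apart from less RNA per cell.

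All 7 arrays lay on 1 slide, the HAY arrays in its first row and the CON arrays in its second, and the effects of row and of feeding cannot be told apart. Epithelial markers were present in every calf, with 16 of 18 listed genes tested and a summed signal of 607 to 683 in HAY and 492 to 675 in CON (multiples of each array's 75th percentile). Most markers of the other cell types had lower means in HAY than in CON: 11 of 11 tested smooth muscle genes, 13 of 13 fibroblast and matrix genes, 11 of 11 endothelial genes and 10 of 15 leukocyte genes. Their summed signals, HAY against CON, were 15.6 to 36.5 against 36.6 to 85.9 for smooth muscle, 16.5 to 75.5 against 50.8 to 241 for fibroblast and matrix genes and 2.57 to 7.99 against 5.82 to 13.3 for endothelial genes. For leukocyte genes they were 8.00 to 8.50 against 12.3 to 19.5. The part of these markers in the ribosomal protein values was not tested.

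The probes are 60 bases long, and which record a probe was designed from divided the members. Of the 89, 49 came from RefSeq or Ensembl transcripts, 10 from GenBank mRNAs and 30 from expressed sequence tags. All 59 probes of the first 2 kinds were well above background on all 7 arrays. Of the 30 tag probes, 18 were well above background on at least 3 arrays and 11 on none. Probes of different kinds for the same gene show this, and their sequences are given 5′ to 3′ with positions on assembly UMD_3.1 and the strand, as the files give them. RPL27, a protein of the large subunit, has 3 RefSeq probes on the plus strand of chromosome 19, and 1 tag probe placed on the minus strand. In the first RefSeq probe, the capitals mark the 34 bases it shares with the third; in the third, whose last 30 bases are given, they mark AATAAA, the signal for cleavage and polyadenylation. Of the tag probe, the first 30 bases are given; the interval the files give for it is shorter than the probe.
RPL27 RefSeq probe 1, chr19:43671469-43671642, plus strand: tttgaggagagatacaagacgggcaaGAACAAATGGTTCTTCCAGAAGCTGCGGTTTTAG
RPL27 RefSeq probe 2, chr19:43671380-43671439, plus strand: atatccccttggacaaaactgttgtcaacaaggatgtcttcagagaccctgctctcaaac
RPL27 RefSeq probe 3, chr19:43671609-43671668, plus strand: ttaggtctgtctcagttAATAAAaatattt
RPL27 tag probe, chr19:43669408-43669432, minus strand: tggctgtagggtcggtctgaggtgccgtca

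The RefSeq probes of RPL27 gave processed signals of 356343 to 435262, 145046 to 174855 and 409834 to 521219 over the 7 arrays, and the tag probe on the other strand gave 2509 to 5387. Probe brightness depends on the probe as well as on the transcript, so these values describe the probes and not amounts of RNA. RPS14 and RPS20, both of the small subunit, likewise have probes of both kinds. The files place the RPS14 transcript probe and the RPS14 tag probe on different chromosomes, 17 and 7, and give no position for the RPS20 tag probe. The first 30 bases are given, except for the RPS20 RefSeq probe, which is given whole.
RPS14 Ensembl transcript probe, chr17:51707970-51708029, plus strand: aatgtatttggtgtgtgccacatctttgca
RPS14 tag probe, chr7:63774863-63774922, minus strand: aaccaaataaaggaccacccaaaacaaggg
RPS20 RefSeq probe, chr14:24955149-24955208, minus strand: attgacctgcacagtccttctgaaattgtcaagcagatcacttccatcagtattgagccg
RPS20 tag probe: gtgaggaaagagactatattagaatttcgt

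The RPS14 transcript probe gave 196482 to 259082, and the RPS14 tag probe 2.49 to 5.13, not well above background on any array. RPS20 gave 484130 to 613586 and 399462 to 490881 on its RefSeq probes and 2.15 to 2.91 on its tag probe, which was also not well above background on any array. The 12 probes that could not be tested were all tag probes. They included RPL4, RPL30, RPL35, RPL37A and RPL38 of the large subunit and RPS3, RPS6, RPS14, RPS18 and RPS20 of the small subunit, and the 12 had median signals from 2.14 to 8.61. Among these only the RPL4 probe was well above background on any array, and it was so on 1. Of the 77 tested members, 75 were well above background on all 7 arrays; the exceptions were the tag probes of RPL8 (6 arrays) and RPS16 (3 arrays). Apart from RPS14 and RPS20, these genes have no other probe among the members, so their levels were not measured here. The 10 GenBank mRNA members had median signals from 1241 to 708630. Whether a tag probe or a GenBank mRNA probe reads the mRNA of the gene it is named for was not tested. Tag probes of all genes on the array passed the same filter in 61.8% of 429 cases, RefSeq or Ensembl probes in 84.8% of 14075.

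**Figure D1:**
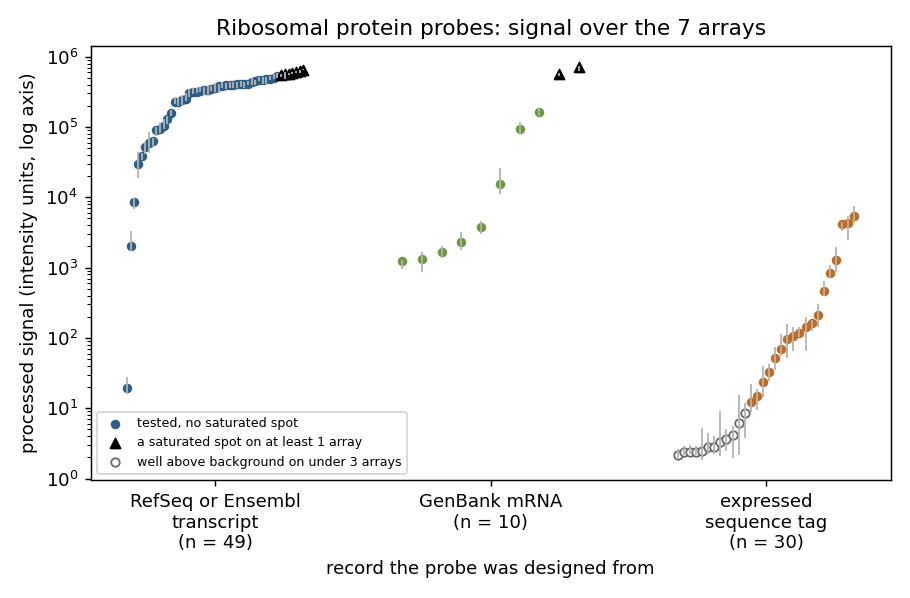
Processed signal (log axis) of the 89 ribosomal protein probes, grouped by the kind of record they were designed from; points are medians of the 7 arrays and grey lines run from the lowest to the highest array. Probes with a saturated spot (triangles) lie at the top of the transcript and mRNA groups, and all 12 probes that failed the background filter (open circles) are tag probes.

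Saturation set the upper end. Over the whole array 19 probes had a saturated spot on any of the 7 arrays, and 9 of them were ribosomal protein probes, which held 59 of the 113 saturated spots (52.2%). The lowest saturated single spot had a signal of 539879. On all 7 arrays 5 members were saturated, RPS10, RPS19, RPS28 and RPL27A among them, so no fold between the groups is given for these. RPL23A was saturated on 3 HAY and 3 CON arrays, RPL21 and RPLP1 on 3 HAY and 2 CON arrays, which leaves only a lower bound in HAY, and RPS20 (in some of its 5 spots) on 1 HAY and 2 CON arrays. RPS19 and RPS28 are among the saturated probes that carry AATAAA, in capitals in the 30 bases given.
RPS19, chr18:51689627-51689686, minus strand: gatgctgggttAATAAAttgcctcgttcgt
RPS28, chr7:18200072-18200131, plus strand: ctgctgttAATAAAgtgtttgtatcgtatg

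The letters AATAAA were found in 20 of the 89 member probes (22.5%), against 9.51% of all 15008 probes of the same length. Among probes from RefSeq or Ensembl transcripts they were found in 15 of 49 members (30.6%) and in 9.37% of 14075. The same letters on the other strand (TTTATT) were found in 2 of 89 members (2.25%) and in 3.40% of all probes. Where on the transcripts these probes lie was not tested. A match of 16 or more bases with a probe of another gene, on the same or the opposite strand, was found for 6 members. The longest was in RPL17 (40 bases, in capitals, shared on the same strand with a probe for an unnamed Ensembl transcript).
RPL17, chr24:49618676-49618735, minus strand: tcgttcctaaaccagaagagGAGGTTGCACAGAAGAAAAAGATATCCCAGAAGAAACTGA

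The comparison asked whether giving forage changed ribosomal protein mRNA levels. Values are log2 of the processed signal minus the 75th percentile of the array, so 0 is that percentile, and differences are HAY minus CON; single values are listed in the order of calves 9, 10 and 13, then 8, 11, 12 and 14. No ribosomal protein probe passed the test: of 77 tested, 0 reached an adjusted p under 0.05 (limma over all 12604 tested probes with Benjamini-Hochberg adjustment), where 1 of all tested probes did (0.00793%). At an unadjusted p under 0.05 there was 1 member, RPL7A, of 77 (1.30%), against 13.9% of all tested probes (6.78% higher and 7.16% lower in HAY). The groups did not overlap for 1 member, again RPL7A and higher in HAY, against 11.8% of all probes (6.55% higher and 5.29% lower). RPL7A did not reach that unadjusted p when any of calves 8, 10, 12 or 13 was left out. Of the 68 tested members without a saturated spot, 0 differed by 2-fold or more, against 6.62% of all tested probes.

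The differences were small and mostly of one sign. Mean values were lower in HAY for 66 of the 77 members and higher for 11, whereas 54.5% of all tested probes had the higher mean in HAY. The median difference was -0.15 (quartiles -0.19 and -0.08, range -0.58 to 0.55), against 0.03 over all tested probes. Divided by gene name, the small subunit (RPS) had a median of -0.18 over 31 probes, of which 30 were lower in HAY. The large subunit (RPL) had a median of -0.12 over 46 probes, of which 36 were lower. Without the 9 probes with a saturated spot the median was -0.15 over 68 probes, of which 57 were lower. The median depended on the scaling of the arrays: with no scaling it was -0.00, with 40 of 77 lower. The median of all tested probes then moved from 0.03 to 0.18. The members lay 0.18 below that median under both, a gap that subtracting a single value per array cannot change. That gap was 0.10 with normexp background correction, 0.064 without HAY calf 13 and 0.25 without HAY calf 10.

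**Figure D2:**
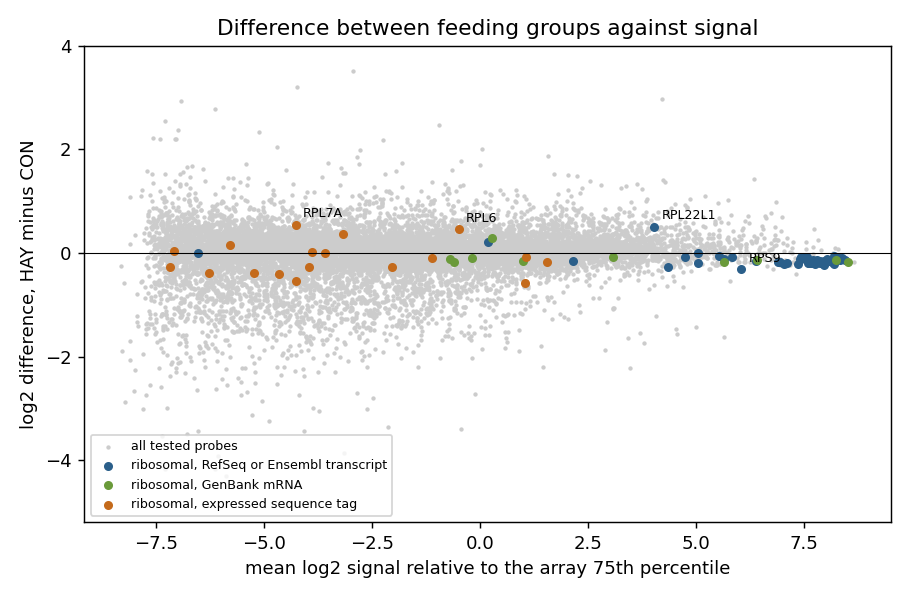
Difference between HAY and CON (log2) against mean log2 signal relative to the array's 75th percentile, for 12604 tested probes (grey) and the 77 tested ribosomal protein probes, coloured by the kind of record. The bright members form a narrow band just below 0, and the tag probes scatter from -0.58 to 0.55.

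The 42 members with a median signal over 100000 (a cut chosen after the values were seen) all had lower means in HAY, with a median of -0.16. They include the 9 members with a saturated spot, for which the direction is not secure. None of the 42 reached an unadjusted p under 0.05 by limma, against 8.33% of the 132 other probes as bright. Of those 132 probes, 48 were lower in HAY and the median was 0.09. RPS7, RPS3A and RPS4X, of the small subunit, differed by -0.17, -0.19 and -0.18. RPL32, RPL11 and RPL19, of the large subunit, differed by -0.19, -0.15 and -0.11. RPS7 and RPL11 had no saturated spot, but their signals reached 585720 and 563928. Both lie above the lowest saturated single spot (539879), so these 2 probes were near the ceiling. RPS3A was 7.77, 7.84 and 7.41 in HAY and 7.84, 7.90, 8.02 and 7.68 in CON. HAY calf 13 was the lowest of the 7 and CON calf 12 the highest, and the groups overlapped. The difference of RPS3A was -0.19 (SE 0.16, 95% confidence interval -0.56 to 0.18, limma, unadjusted p = 0.273, adjusted p = 0.635).

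The same pair of calves stood out over the members. As a median over the 77 members, the deviation of a calf from the mean of the 7 was -0.01, 0.07 and -0.34 in calves 9, 10 and 13 of HAY, and 0.00, 0.13, 0.21 and -0.08 in calves 8, 11, 12 and 14 of CON. Calf 13 was the lowest for 57 of 77 members (74.0%) and for 21.4% of all tested probes, and calf 12 the highest for 40 members (51.9%) and for 10.7% of all tested probes. Calves 9 and 10 lay within the range of the CON calves. The arrays of calves 13 and 12 also had the highest and the lowest 75th percentile, a signal of 2189 in calf 13 and of 1526 in calf 12, against 1850 to 1959 in the other 5. With no scaling the median deviations were -0.00, 0.08 and -0.12 in HAY and -0.01, 0.13, -0.09 and -0.01 in CON, so calf 12 then lay among the low calves. Without calf 13 the median difference of the members was -0.03, with 50 of 77 lower in HAY, and without calf 10 it was -0.23, with 69 lower. Slide columns 2, 3 and 4 each held 1 array of each group (calves 9 and 11, 10 and 12, 13 and 14), and within them the median difference of the members was -0.13, -0.13 and -0.25, with 58, 56 and 64 of 77 lower in HAY, beside medians of all tested probes of -0.03, 0.04 and 0.01.

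**Figure D3:**
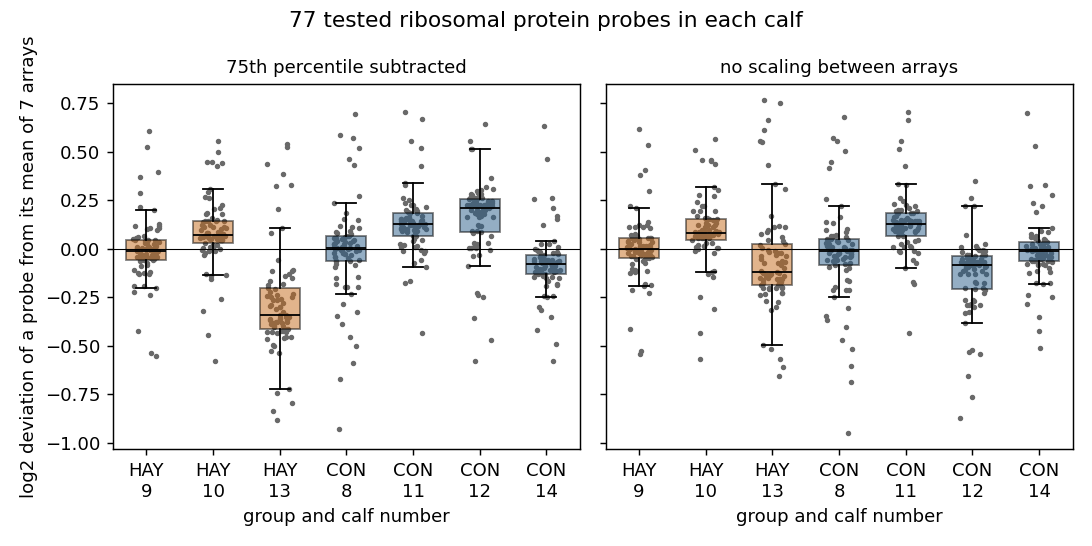
Log2 deviation of each of the 77 tested ribosomal protein probes from its own mean of 7 arrays, by calf, after subtracting the array's 75th percentile (left) and with no scaling (right); boxes show quartiles and median, whiskers reach up to 1.5 times the box height, and points are probes. Left, calf 13 lies lowest (median -0.34) and calf 12 highest (0.21); right, the medians of all calves lie between -0.12 and 0.13.

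The 6 highest differences among the members were all in genes named RPL, which held 46 of the 77 tested probes. RPL7A had only a tag probe among the members, and was -4.19, -4.00 and -3.78 in HAY and -4.65, -4.25, -4.88 and -4.36 in CON. Every HAY calf lay above every CON calf, and within slide columns 2, 3 and 4 HAY was higher by 0.07, 0.89 and 0.59. The difference was 0.55 (SE 0.19, 95% confidence interval 0.10 to 1.003, limma, unadjusted p = 0.0234, adjusted p = 0.300), or 1.46-fold. The probe was among the dim ones, with a median signal of 98.0. The RPL6 tag probe was -0.61, -0.03 and -0.14 in HAY and -1.11, -0.43, -0.76 and -0.60 in CON, so the groups overlapped, and differed by 0.47 (SE 0.22, 95% confidence interval -0.04 to 0.97, limma, unadjusted p = 0.0646, adjusted p = 0.383). The RPL9 tag probe differed by 0.37 (unadjusted p = 0.113 by limma) with overlapping groups. The first 30 bases of these tag probes are given because the array has no transcript probe under these gene names to set beside them. No position is given for the RPL6 probe.
RPL7A tag probe, chr11:104315080-104315139, plus strand: taggggatttacttgggcataaaattactt
RPL6 tag probe: ataaaagtaataaaggcaaacatctgcttg
RPL9 tag probe, chr6:60214902-60214961, plus strand: ccccttcccaccaactaaccattatagttt

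Paralogues are second gene copies whose protein can take the place of the standard one, or whose expression is limited to certain tissues. RPL22L1, the paralogue of RPL22, had the highest difference among probes from transcripts. It was 3.99, 4.56 and 4.33 in HAY and 3.33, 3.99, 3.64 and 4.17 in CON. CON calf 14 lay above HAY calf 9, so the groups overlapped. The difference was 0.51 (SE 0.24, 95% confidence interval -0.05 to 1.07, limma, unadjusted p = 0.0679, adjusted p = 0.390). RPL22 itself was 6.42, 6.56 and 6.04 in HAY and 6.48, 6.65, 6.53 and 6.24 in CON, with a difference of -0.14.
RPL22L1, first 30 bases, chr5:32530437-32530496, plus strand: cccccaccccaaatactttgtataagcaat
RPL22, chr16:47999896-47999955, plus strand: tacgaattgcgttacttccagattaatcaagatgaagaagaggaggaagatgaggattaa

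Within each array, the log2 ratio of the RPL22L1 probe to the RPL22 probe ranged from -2.43 to -1.71 in HAY and from -3.16 to -2.07 in CON. The change was 0.65 (exact two-sided permutation test over 35 splits, p = 0.114, adjusted p = 0.6 over 6 pairs). The smallest p this design can give is 0.0286. Subtracting a single value per array leaves this ratio unchanged, but quantile normalization or another background correction can change it. RPL7L1, a relative of RPL7 that takes part in making the large subunit, differed by 0.22 against -0.13 for RPL7, and the change of their ratio was 0.35 (exact permutation p = 0.2). The ratios of RPL26L1 to RPL26, RPL3L to RPL3, RPS27L to RPS27 and RPS4Y1 to RPS4X changed by -0.02, 0.12, -0.20 and -0.01, with exact permutation p of 0.914, 0.6, 0.343 and 0.886. RPL3L, known from muscle, differed by 0.00 at a median signal of 19.7. The RPL3 probe came from a GenBank mRNA and had a median signal of 1241. RPS27L differed by -0.39, RPL26L1 by -0.15 and RPS4Y1 by -0.20, each with overlapping groups.

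**Figure D4:**
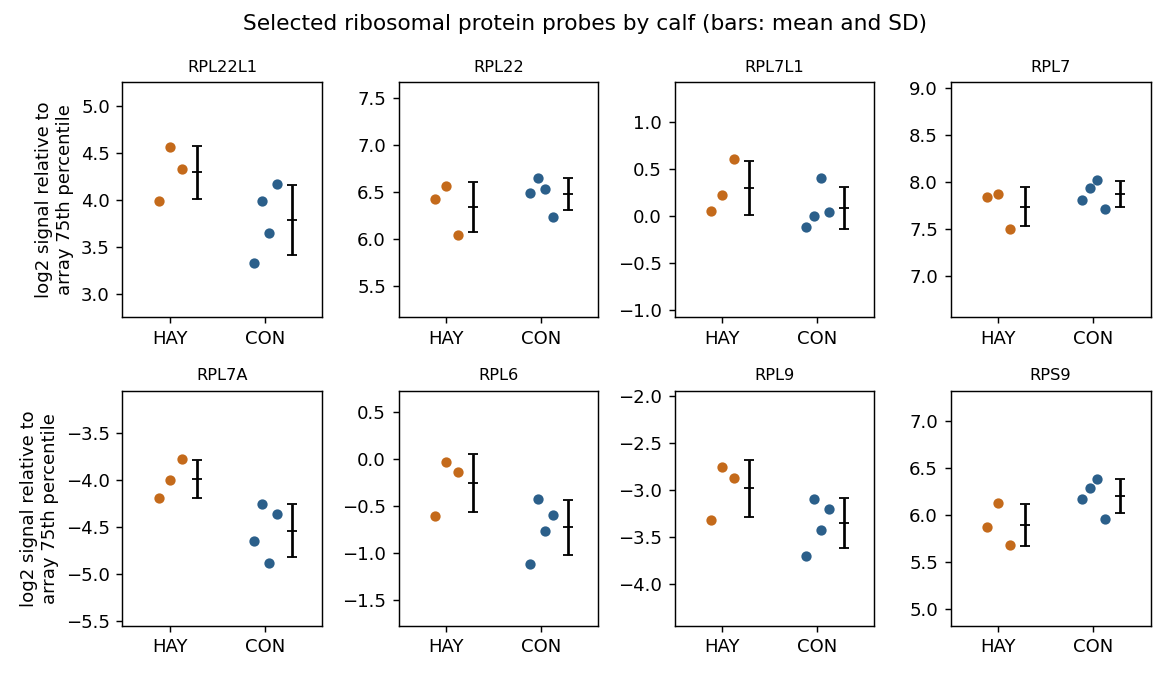
Log2 signal relative to the array's 75th percentile of 8 ribosomal protein probes in the 3 HAY and 4 CON calves (points), with group mean and SD (bars); every panel spans the same number of log2 units. RPL7A is the only one of the 8 whose groups do not overlap; RPL22L1 has a HAY mean 0.51 above the CON mean and RPL22 a difference of -0.14.

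Among the lower members, the RPL27 tag probe was 1.29, 0.76 and 0.20 in HAY and 1.54, 1.20, 1.72 and 0.84 in CON, a difference of -0.58 (SE 0.31, 95% confidence interval -1.29 to 0.14, limma, unadjusted p = 0.0992, adjusted p = 0.442). The 3 RefSeq probes of RPL27 differed by -0.22, -0.16 and -0.22, with SE of 0.16 to 0.17. RPS9, a small subunit protein with a transcript probe, was 5.88, 6.13 and 5.68 in HAY and 6.18, 6.29, 6.39 and 5.96 in CON, a difference of -0.31 (SE 0.17, 95% confidence interval -0.70 to 0.08, limma, unadjusted p = 0.108, adjusted p = 0.453). The RPS29, RPL36A and RPS27A tag probes differed by -0.41, -0.28 and -0.39; RPS27A encodes ubiquitin fused to a small subunit protein. In all 5 of these genes the groups overlapped.

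The stalk of the large subunit, which recruits elongation factors, is built from RPLP0, RPLP1 and RPLP2. RPLP0 differed by -0.16, RPLP2 by -0.07; RPLP1 was saturated on all HAY arrays. RPL5 and RPL11, which form a particle with a small ribosomal RNA that can also bind MDM2, differed by -0.26 and -0.15. RPSA, also known as the laminin receptor, differed by -0.01 with an SD of 0.496 in HAY, where its values were 4.52, 5.50 and 5.14. RPL10, which joins the large subunit late in its maturation, differed by 0.29 (SE 0.19, unadjusted p = 0.172 by limma). The RPL10 and RPLP0 probes came from GenBank mRNAs and had median signals of 2313 and 3746. The middle signal of the RefSeq or Ensembl members was 359689. Whether these 2 probes read the mRNAs they are named for was not tested.

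The median SD of the members within the groups was 0.200 log2 units, against 0.269 over all tested probes, and it followed the kind of probe. It was 0.188 for members from RefSeq or Ensembl transcripts, 0.250 for those from GenBank mRNAs and 0.320 for those from tags. Members with a signal over 100000 had a median SD of 0.187 and the other probes as bright 0.194. Without the 9 members with a saturated spot it was 0.208. Among the largest SDs over the 7 calves were those of RPL31 (0.547), RPL39 (0.523), the RPL27 tag probe (0.521) and RPS16 (0.505), and of these all but RPL39 are tag probes. Among the smallest were those of RPL26L1 (0.122), RPLP1 (0.128), RPL23A (0.140) and RPL21 (0.141). All of these but RPL26L1 had saturated spots. The part of saturation in these SDs was not tested.

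Some ribosomal proteins have names outside the RPL and RPS series. FAU, which encodes a ribosomal protein fused to a ubiquitin-like protein, differed by -0.14. GNB2L1 (RACK1), a scaffold on the small subunit, was -4.20, -4.01 and -4.20 in HAY and -4.61, -4.27, -4.26 and -4.41 in CON. It differed by 0.25 (SE 0.14, limma, unadjusted p = 0.126, adjusted p = 0.477). Its groups did not overlap, as was so for 11.8% of all tested probes. The probe was dim, with means of -4.14 in HAY and -4.39 in CON.

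The other genes of ribosome production and translation were read from the same fit, and none reached an adjusted p under 0.05. At an unadjusted p under 0.05 there were 13 of 144 probes over 5 lists (9.03%), against 13.9% of all tested probes; the count was 6 with no scaling, 4 without HAY calf 13 and 7 without CON calf 8. Of 59 tested ribosome assembly factors, 45 were lower in HAY with a median of -0.13, and 7 were lower at an unadjusted p under 0.05 and 0 higher, beside 7.16% and 6.78% of all tested probes. Their groups did not overlap for 14 lower genes and 1 higher gene (25.4%), beside 11.8% of all tested probes. NHP2, a protein of the particles that pseudouridylate ribosomal RNA, was -4.56, -4.66 and -5.08 in HAY and -3.56, -4.37, -3.90 and -3.64 in CON, a difference of -0.90 (SE 0.23, limma, unadjusted p = 0.00567, adjusted p = 0.232). GNL3 (nucleostemin), a nucleolar GTPase, was 0.38, 0.72 and 0.26 in HAY and 1.10, 0.93, 0.96 and 1.08 in CON, a difference of -0.56 (SE 0.15, limma, unadjusted p = 0.00663, adjusted p = 0.244). Every HAY calf lay below every CON calf for both. RRP12, which acts in the export of ribosomal subunits, differed by -0.51 (SE 0.19, limma, unadjusted p = 0.0299, adjusted p = 0.315), and HAY calf 10 lay within the CON range.

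Of 33 tested initiation factors, 26 were lower in HAY with a median of -0.11. EIF2B2, a subunit of the exchange factor for eIF2, was 0.69, 0.94 and 0.60 in HAY and 1.16, 1.10, 1.07 and 1.39 in CON, with no overlap, and differed by -0.44 (SE 0.15, limma, unadjusted p = 0.0202, adjusted p = 0.292). EIF4G2, a relative of the scaffold eIF4G, differed by -0.42 (SE 0.17, limma, unadjusted p = 0.0432, adjusted p = 0.347). Of 12 elongation and release factors, 10 were lower with a median of -0.10, and EEF1B2, the exchange factor subunit of eEF1, was higher, by 0.49 (SE 0.21, limma, unadjusted p = 0.0468, adjusted p = 0.355). Among 20 probes for RNA polymerase I and its factors, 12 were lower with a median of -0.09; POLR2H, a subunit that all nuclear RNA polymerases share, differed by 0.45 (SE 0.14, limma, unadjusted p = 0.0136, adjusted p = 0.271) and CD3EAP, specific to RNA polymerase I, by -0.39 (SE 0.12, limma, unadjusted p = 0.0144, adjusted p = 0.273), both without overlap between groups. The list of TOR pathway and TOP mRNA regulators stood at a median of 0.02, with 13 of 20 higher in HAY. That list also held MNT, a transcriptional repressor that opposes MYC, which differed by 0.82 (SE 0.31, limma, unadjusted p = 0.0289, adjusted p = 0.314). With no scaling the medians of these 5 lists were 0.03 for initiation, 0.05 for elongation, 0.01 for assembly, 0.06 for RNA polymerase I and 0.17 for TOR, all at or below the 0.18 of all tested probes.

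**Figure D5:**
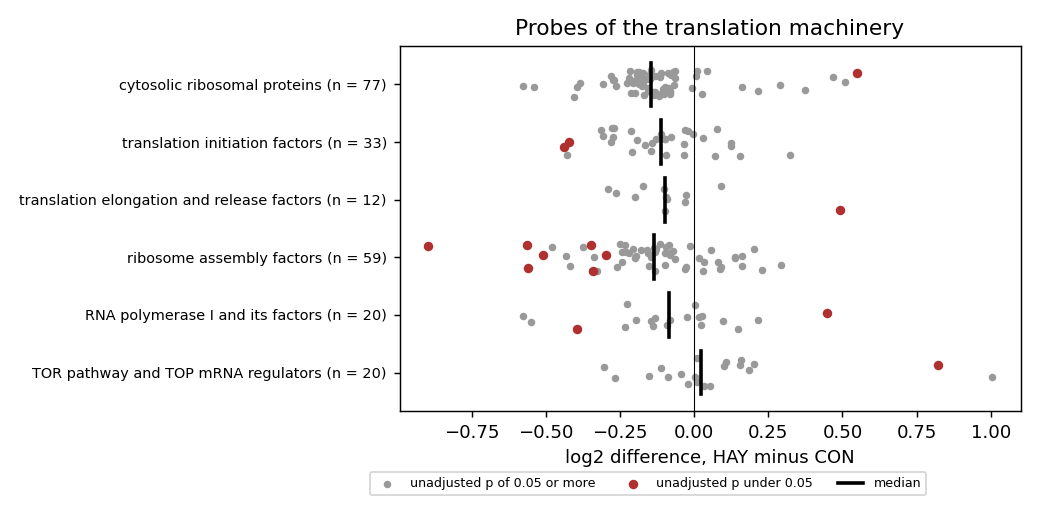
Log2 difference between HAY and CON for the tested ribosomal protein probes and for 5 lists of translation genes; points are probes, red marks an unadjusted limma p under 0.05, and black bars are medians. The medians run from -0.15 for the ribosomal proteins to 0.02 for the TOR list, and the 7 red points among the 59 ribosome assembly factors are all lower in HAY (13.9% of all tested probes have an unadjusted p under 0.05).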

How the data were processed

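The deposited scanner files give spot intensity, linear and background-subtracted by Agilent Feature Extraction 9.5 (per the submitters' processing notes), with no scaling of one array to another. A deposited table of log2 values for the series matched the scanner values (log2 signal minus the array's 75th percentile, not centred by gene) to within an SD of 0.000352 on each array; its column medians were -3.12, -3.14 and -3.20 in HAY and -3.09, -3.09, -3.08 and -3.11 in CON calves, in order of calf number.

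Control spots and outlier-flagged spots were left out and saturated spots kept. Repeated spots were averaged as log2 values, and each array's 75th percentile was subtracted. Between 81.5 and 84.6% of the spots were well above background per array, and the number of arrays limits the precision. Probes well above background on at least 3 arrays (12604 of 15008) were tested with limma 3.58.1 (lmFit, eBayes) in R 4.3.3, HAY against CON, with Benjamini-Hochberg adjustment over all of them and a threshold of 0.05. The fit was also run on simulated data with differences larger than those of any member. That run does not show whether differences as small as those of the members could be detected. Replicates are single calves; the spread behind each p is that between calves.

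Gene names are those of the array's design; 48 members matched the RefSeq gene table by accession, all with the same symbol. Coordinates are those of the files on UMD_3.1; exon and UTR annotation was not used here. Members and gene lists were chosen with earlier results of these data known. Genes named in the text were taken by rule: up to 8 members per direction without overlap between groups by smallest p, every paralogue with its partner, every saturated and every untested member, the 5 largest and 5 smallest SDs, and per list of translation genes up to 3 per direction of smallest unadjusted p under 0.05. Subunit, stalk, high and low members beyond these (RPL5, RPL6, RPL9, RPL10, RPL11, RPL19, RPL32, RPL36A, RPLP0, RPLP2, RPS3A, RPS7, RPS9, RPS27A, RPS29 and RPSA) were named after their values were seen. Some genes are not reported here by name, though the counts and medians include them. Alternatives covered background correction, scaling, the background filter, saturated probes, probes per gene, the deposited table, the slide column as a block, no scaling and values within slide columns (both added after seeing the data) and leaving out each calf.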

Additional observations from a re-analysis of the deposited data

Results flagged for a closer look

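In the CON group of 4 calves, the gap between the most distant calf and its nearest neighbour, as a share of the group's range, was compared with Dixon's critical value for 4 samples, over 26 measures; chance alone passes it in about 1 in 20 groups, and 1 passed. For RPL3, CON calf 11 lay at -0.53 and the others between -0.68 and -0.65, a share of 0.833. No explanation of this value was tested.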

How the results depend on the processing

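No member reached an adjusted p under 0.05 by limma in any of the 18 alternatives. The median difference of the members was below 0 in all 18: from -0.23 to -0.03 with 1 calf left out, -0.08 with median centring, -0.09 with quantile normalization and -0.00 with no scaling. Of the same 77 members, 64 to 71 were lower in HAY in the alternatives that scaled the arrays and kept calf 13. No paired analysis by animal was possible because the groups share no calf number; slide columns 2, 3 and 4 each pair 1 HAY with 1 CON array.

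At an unadjusted p under 0.05 there was 1 higher and 0 lower member. There were 2 higher without background subtraction (RPL22L1 joined RPL7A), 2 with no filter on dim probes (RPL4, on a probe at background), 3 with median centring (RPL6 and RPL22L1 besides RPL7A) and 4 with no scaling (RPL10 too). Normexp gave 1 lower (RPL36A), with RPL22L1 in place of RPL7A, and quantile normalization 1 lower (RPS9). The slide column as a block, which leaves CON calf 8 alone in its column, gave 0 higher and 2 lower (RPS27L among them). Leaving out 1 calf gave 0 to 4 higher and 0 to 3 lower. Over all probes the adjusted count of 1 became 4 with quantile normalization, 2 with the block, 4 with no scaling and 1 to 21 with a calf left out (21 when it was CON calf 14); the unadjusted count of 1756 became 983 to 2343. Of the called probes 48.6% were higher, against 61.5% with median centring, 36.7% with the block and 68.9% with no scaling. The 13 other translation genes became 6 with no scaling and 4 to 14 with a calf left out.

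Some small differences changed sign. With no scaling RPL39 was 0.071, RPL26 0.0073, RPL3 0.025, RPL7 0.013 and RPL22 0.0066. RPL3L was -0.059 with normexp and -0.029 without background subtraction, and RPL31 -0.074, -0.023 and, with the block, -0.28. With 1 calf left out, RPL39 ranged from -0.40 to 0.27, RPL31 from -0.28 to 0.25, RPL3L from -0.22 to 0.20, RPL3 from -0.23 to 0.074, RPL26 from -0.22 to 0.015 and RPL22 from -0.25 to 0.014. The causes were not tested.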
